A study of Mus musculus with 9 samples.

Results

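Mitochondrial beta-oxidation and ketone enzymes were followed across fibroblasts that received PPARγ and its agonist. The set held 32 genes named in a list of enzymes, and each was read from 1 probe set, the one with the highest mean over the 9 arrays. All 32 were found among the 18193 genes that the arrays could name, and 16 of them had more than 1 probe set. The cells were NIH-CAR, a single clone of the mouse fibroblast line NIH-3T3 that stably carries CARΔ1, a form of the coxsackie-adenovirus receptor through which adenoviral vectors enter. Every group received an adenovirus for 2 h at 80% confluency in DMEM with 10% calf serum, and cells were at passage 12. The 3 arrays of the empty-vector group held RNA of cells given AdEmpty, a virus with no insert, and then the vehicle DMSO. The 3 arrays of the full-length group held RNA of cells given a virus encoding HA-tagged PPARg2 and then 1 µM rosiglitazone, a PPARγ agonist. The 3 arrays of the deleted group came from cells given a virus encoding HA-PPARgCDE, the receptor without its A/B-domain, and then 1 µM rosiglitazone. These groups set side by side what each form of the receptor does to transcript levels when its agonist is present. No group received the receptor without agonist or the agonist without receptor, so their parts in any difference from empty vector cannot be told apart. The labels speak of separate experiments without saying which array belongs to which, so a p-value here reflects array-to-array spread within 1 clone, part of which may be technical.

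Beta-oxidation shortens a fatty acyl-CoA in the mitochondrial matrix by a repeated cycle of dehydrogenation, hydration, a second dehydrogenation and thiolysis. Acyl-CoA dehydrogenases open each cycle and pass their electrons through electron transfer flavoprotein to the respiratory chain, while unsaturated chains need auxiliary isomerases and a reductase. The acetyl-CoA that results enters the citric acid cycle or, mainly in liver, ketone body synthesis, and other tissues burn ketone bodies. PPARγ is a nuclear receptor that binds DNA with RXR, drives adipocyte differentiation and turns on genes of fatty acid uptake and storage. Genes of fatty acid oxidation are best known as targets of its relative PPARα in liver and PPARδ in muscle. The A/B-domain is the amino-terminal part of the receptor and holds an activation function that does not need ligand.

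Levels are log2 values, so that a difference of 1 is 2-fold. Pparg itself gave log2 levels of 7.01, 6.99 and 7.17 with empty vector, 10.70, 12.22 and 10.84 with full-length PPARg2, and 10.74, 12.01 and 11.26 with PPARgCDE. Every receptor array lay above every empty-vector array, and the receptor groups differed by 0.09 (95% interval -0.83 to 1.01), so this probe set matched the labels but does not tell the receptor forms apart. All 10 fibroblast markers lay above the lowest array median, 6.68, on every array, and their summed signal ran from 16.35 to 16.68, 16.33 to 16.66 and 16.36 to 16.68 on the log2 scale in the empty-vector, full-length and deleted groups. Of the adipocyte markers measured, 3 of 6 lay above that level on every array and 1 lay below it on every array, and their summed signal was 8.94 to 9.48 with empty vector, 13.49 to 13.95 with full-length PPARg2 and 11.62 to 13.38 with PPARgCDE. The sum adds linear levels, so the brightest genes weigh most. The fatty acid carrier Fabp4 read 5.39 to 6.03 with empty vector, 13.13 to 13.63 with full-length PPARg2 and 11.04 to 13.15 with PPARgCDE. In the same order Lpl averaged 7.39, 11.25 and 9.93 and Cidec 5.15, 7.66 and 5.70. By contrast the adipokine Adipoq averaged 5.46, 5.68 and 5.49, Retn 7.13, 7.24 and 7.05, and Cebpa 7.23, 7.20 and 7.26. In a bulk sample more adipocyte-like cells and more such RNA per cell cannot be told apart, and the part of these markers in the differences below was not tested. The summed hepatocyte, muscle, leukocyte and epithelial markers each spanned less than 1 log2 unit over all arrays. The arrays numbered 3 stood apart in the 18S rRNA control probe sets, which averaged 8.67, 7.59 and 8.06 there and 10.51 to 12.44 on the other arrays. Results are therefore also given without the arrays numbered 3.

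The promoters of 4 members are printed because the results turn on these genes. Ech1 and Etfdh were called in the comparison of full-length PPARg2 with empty vector, Acadvl had the lowest receptor difference of the members, and Hadhb lies head to head with Hadha. Each run is the 250 bases before the transcription start, read 5′ to 3′ on the gene's strand, from RefSeq on GRCm38.p6. Capitals mark a match to AGGTCA, the single element recognised by many nuclear receptors, or to GGNCANAGG, the middle of the repeat of 2 AGGTCA copies spaced by 1 base that PPAR binds with RXR. Ech1 lies at chr7:28825088-28825337 on the plus strand, Etfdh at chr3:79628768-79629017 on the minus strand, Acadvl at chr11:70015429-70015678 on the minus strand and Hadhb at chr5:30155003-30155252 on the plus strand.
Ech1: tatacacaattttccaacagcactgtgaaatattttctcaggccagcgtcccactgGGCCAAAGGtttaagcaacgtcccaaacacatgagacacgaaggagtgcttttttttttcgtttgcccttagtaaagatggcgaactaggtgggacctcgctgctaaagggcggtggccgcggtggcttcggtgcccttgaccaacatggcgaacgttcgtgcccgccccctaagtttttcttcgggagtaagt
Etfdh: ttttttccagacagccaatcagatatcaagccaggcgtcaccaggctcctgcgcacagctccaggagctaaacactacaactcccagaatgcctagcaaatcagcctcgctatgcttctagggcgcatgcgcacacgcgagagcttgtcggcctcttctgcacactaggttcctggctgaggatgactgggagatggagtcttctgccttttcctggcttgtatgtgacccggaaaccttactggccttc
Acadvl: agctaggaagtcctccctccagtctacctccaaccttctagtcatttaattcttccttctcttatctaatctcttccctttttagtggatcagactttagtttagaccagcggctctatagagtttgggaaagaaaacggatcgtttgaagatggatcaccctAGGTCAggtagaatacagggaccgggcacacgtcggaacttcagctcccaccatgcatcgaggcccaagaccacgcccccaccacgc
Hadhb: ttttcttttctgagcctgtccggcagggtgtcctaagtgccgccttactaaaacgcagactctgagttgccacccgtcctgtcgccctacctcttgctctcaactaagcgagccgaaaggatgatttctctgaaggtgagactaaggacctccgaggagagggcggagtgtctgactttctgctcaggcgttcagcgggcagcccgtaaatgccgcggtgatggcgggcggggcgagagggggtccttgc
The Ech1 run held GGCCAAAGG 194 bases before the start, and the Acadvl run held AGGTCA 87 bases before it. The Etfdh and Hadhb runs held neither match. The Hadhb run fills most of the 272 bases that separate the starts of Hadha, on the minus strand from position 30154980 of chromosome 5, and Hadhb, on the plus strand from position 30155253. In all, 28 of the 32 members had an entry in the promoter table, and both strands were searched. A member counted once if any of its entries matched (30 entries in all). The shares of all promoters are per entry, 32851 entries of 27025 genes, so the units differ. AGGTCA was in 4 of them (Acadm, Acadvl, Echs1 and Pcca; 14.3%) and in 14.0% of all 32851 promoters of that length. GGNCANAGG was in 2 (Ech1 and Etfa; 7.14%) against 7.15% of all promoters, and overlaps the full repeat where that occurs. The full repeat, AGGTCA then any base then AGGTCA, was in 0 members and in 0.0335% of all promoters. Its looser form, with AGGNCA for each copy, was in 0 members and in 0.338% of all promoters. A match describes letters in this window and is not a shown binding site, and no match speaks only of this window.

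With full-length PPARg2 and agonist, 2 of the 32 members rose against empty vector, Ech1 and Etfdh, and 0 fell, by limma with Benjamini-Hochberg adjustment at 0.05 over all genes. At an unadjusted p under 0.05, 12 members were higher and 2 lower, as were 553 and 574 of all 18193 genes. Over all 18193 genes, 0.654% were called in either direction, 91 of them higher and 28 lower. With the array number as a block limma called 9 members higher and 1, Ivd, lower, against 1.89% and 1.74% of all genes. The 3 full-length arrays all lay above the 3 empty-vector arrays for 10 members (31.2%) and all below for 3 (Ivd, Gcdh and Echs1), against 4.52% and 4.86% of all genes. The median difference of the 32 members was 0.16, beside 0.00 for all genes. A positive difference was seen in 18 of the 32 members and in 50.9% of all genes, so that this count lies near the background. The members above empty vector without overlap were Acadvl, Hadha, Hadhb, Hadh, Hsd17b10, Acaa2, Ech1, Eci1, Eci2 and Etfdh, which are spread over the steps of the cycle rather than held in 1 of them.

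With PPARgCDE and agonist, 1 member rose against empty vector, Etfdh, and 0 fell, by the same limma test, while at an unadjusted p under 0.05 9 members were higher and 1 lower, as were 403 and 286 of all genes. Over all genes 0.159% were called higher and 0.0110% lower. The deleted arrays lay above empty vector without overlap for 10 members (31.2%, against 3.86% of all genes) and below it for 1, Ivd (against 4.03%). The median member difference was 0.11, beside -0.03 for all genes. A positive difference was seen in 21 of the 32 members and in 42.2% of all genes. Arrays of the same number deviated together in these groups, and with the array number as a block the limma fit called 6 members higher: Acadvl, Acadl, Hadh, Acaa2, Ech1 and Etfdh. The same blocked fit called 0.660% of all genes higher and 0.253% lower, and 0 members lower. Within array numbers, 14 members were above empty vector in all 3 (43.8%, against 14.8% of all genes) and 4 below in all 3 (Acad11, Ivd, Echs1 and Oxct1; 12.5%, against 19.0%). Both receptor groups were set against the same 3 empty-vector arrays, so the counts of both comparisons are not independent of each other.

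**Figure D1:**
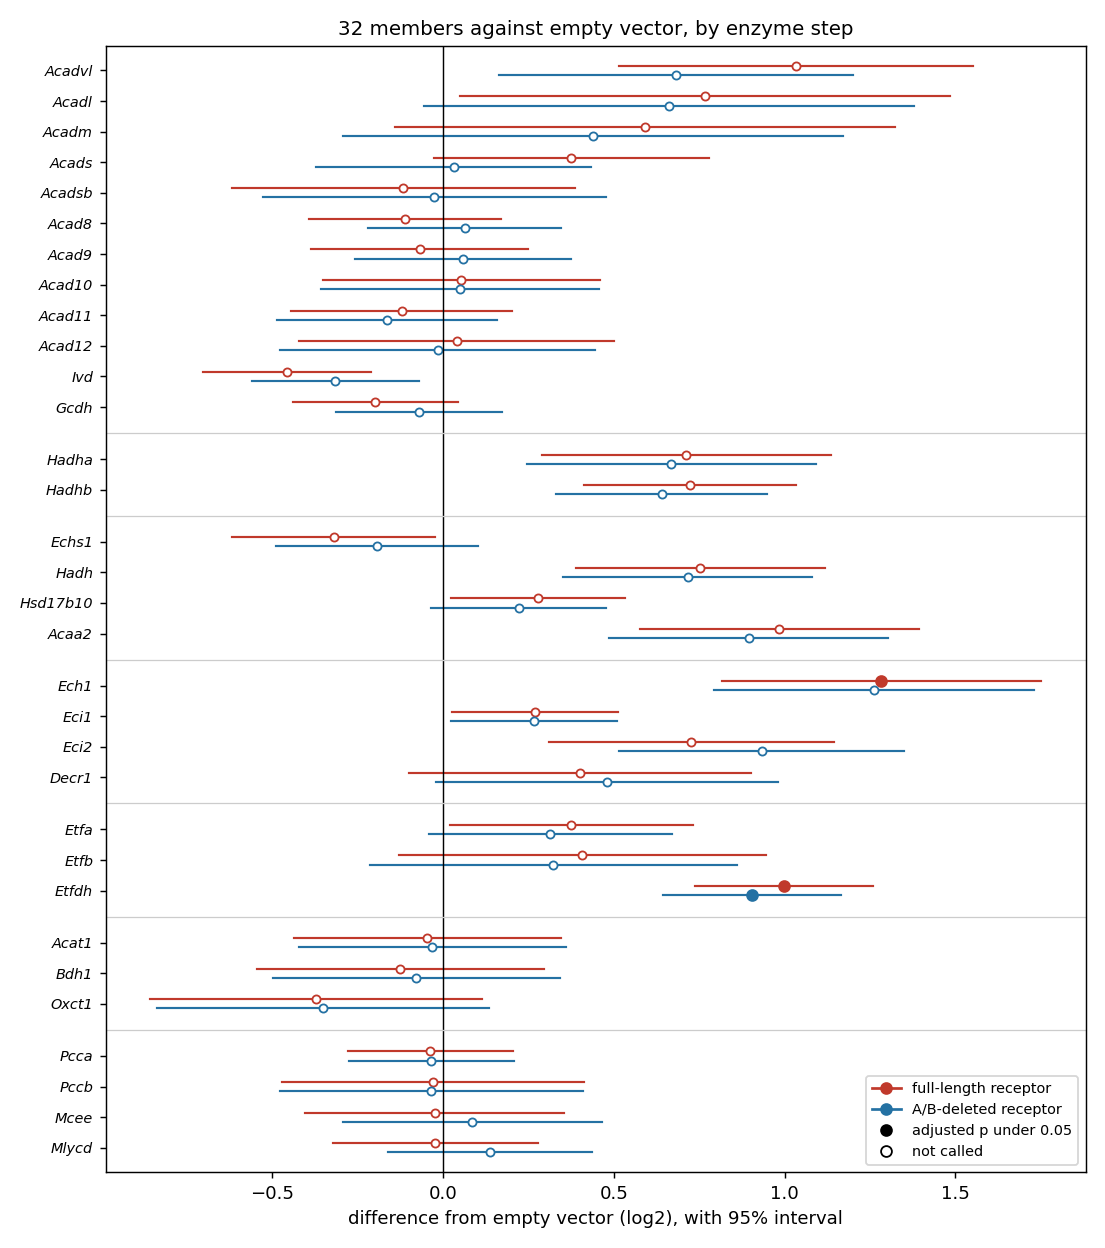
Difference from empty vector on the log2 scale (horizontal axis) for each of the 32 members, grouped by enzyme step, with the full-length and deleted groups as separate points and 95% intervals from limma as bars. Ech1 and Etfdh reach 1.28 and 1.00 with full-length PPARg2, while the propionyl-CoA and malonyl-CoA enzymes sit near 0.

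Among the 4 dehydrogenases of straight-chain acyl-CoAs the difference was largest for the very-long-chain enzyme and smaller for each shorter chain length. Acadvl, the membrane-bound very-long-chain enzyme, read 9.16, 9.72 and 9.25 with empty vector, 10.21, 10.80 and 10.23 with full-length PPARg2 and 9.91, 10.45 and 9.83 with PPARgCDE. Its receptor arrays all lay above its empty-vector arrays, and array 2 was highest in each group. The difference from empty vector was 1.03 (SE 0.23, limma adjusted p = 0.118) with full-length PPARg2 and 0.68 (adjusted p = 0.909) with PPARgCDE. With the array number as a block, Acadvl rose with full-length PPARg2 (limma adjusted p = 0.00245) and with PPARgCDE (block SE 0.07, adjusted p = 0.0168). Within numbers 1, 2 and 3 it was 0.75, 0.72 and 0.57 higher with PPARgCDE. Acadl, the long-chain enzyme, read 9.92, 9.72 and 10.65 with empty vector, 10.65, 10.58 and 11.37 with full-length PPARg2 and 10.55, 10.43 and 11.30 with PPARgCDE. Here array 3 was highest in every group, and the empty-vector array 3 reached the level of the lower receptor arrays, so the groups overlapped. The limma differences were 0.77 (SE 0.32, adjusted p = 0.727) and 0.66 (adjusted p = 1.00). With the block Acadl rose with full-length PPARg2 (adjusted p = 0.00368) and with PPARgCDE (adjusted p = 0.0168). Without the arrays numbered 3 the full-length difference was 0.79 and passed the limma test (adjusted p = 0.0468), while the deleted one was 0.67 (adjusted p = 0.152).

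Acadm, the medium-chain enzyme, was 0.59 (SE 0.33) and 0.44 (SE 0.33) above empty vector, with arrays at 9.85 to 10.18, 10.00 to 11.12 and 9.85 to 10.92 in the empty-vector, full-length and deleted groups and array 3 lowest in each. Acads, the short-chain enzyme, differed by 0.38 (SE 0.18) and 0.03 (SE 0.18). Neither passed the limma test in any comparison, the block included. The order 1.03, 0.77, 0.59 and 0.38 from Acadvl to Acads is a description, since the intervals of the 4 full-length differences overlapped.

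The 4 dehydrogenases that serve amino acid breakdown all had negative differences with full-length PPARg2. Ivd, the isovaleryl-CoA enzyme of leucine breakdown, read 8.59, 8.69 and 8.65 with empty vector, 8.28, 8.06 and 8.22 with full-length PPARg2 and 8.35, 8.21 and 8.41 with PPARgCDE. On the probe set used, every receptor array was below every empty-vector array. The differences were -0.46 (SE 0.11, limma adjusted p = 0.154) and -0.32 (SE 0.11, adjusted p = 0.929), and neither passed without the block. With the block Ivd was called lower with full-length PPARg2 (adjusted p = 0.0433) but not with PPARgCDE (adjusted p = 0.228). Within array numbers PPARgCDE was at -0.24, -0.47 and -0.23 against empty vector. Gcdh, the glutaryl-CoA enzyme of lysine and tryptophan breakdown, was at -0.20 and -0.07. Acadsb, of isoleucine, was at -0.12 and -0.03, and Acad8, of valine, at -0.11 and 0.06. Without the block 0 of the 4 dehydrogenases passed. The medians over these 4 enzymes were -0.16 and -0.05. Acad9, also an assembly factor of respiratory complex I, and the less studied Acad10, Acad11 and Acad12 lay between -0.16 and 0.06 in both comparisons, and 0 of the 4 passed the limma test at an adjusted or unadjusted p under 0.05.

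**Figure D2:**
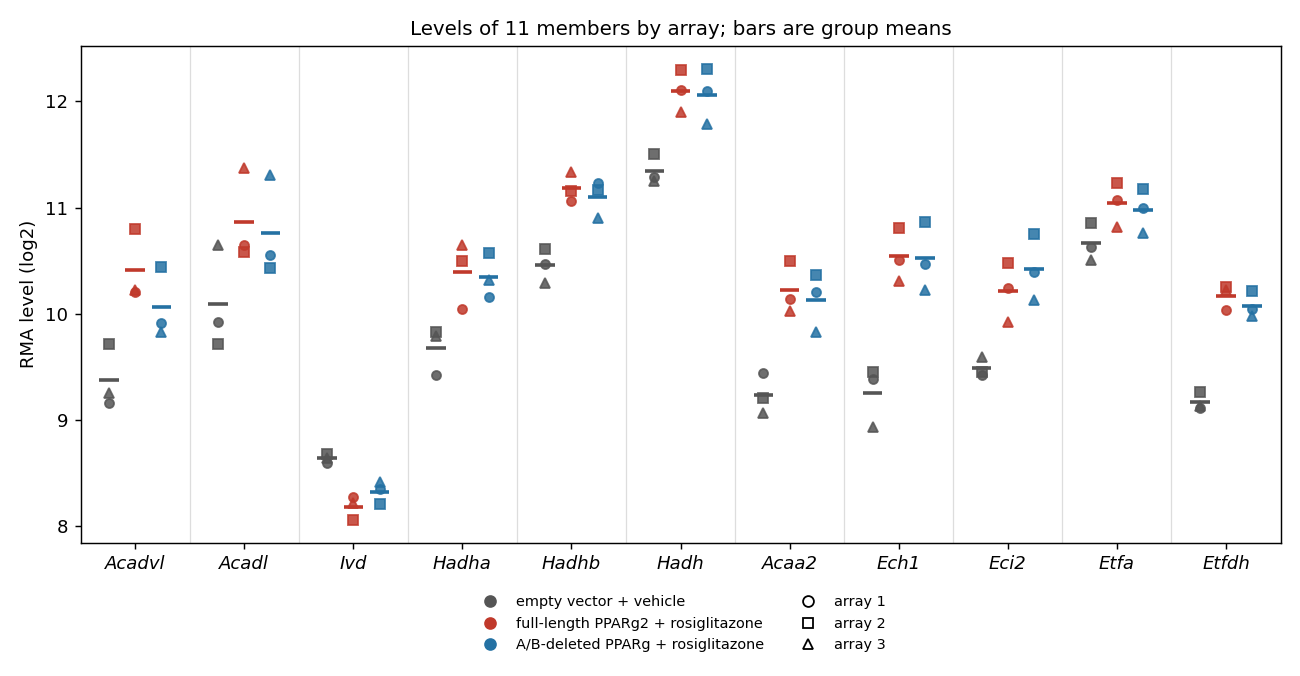
Log2 level (vertical axis) on each of the 9 arrays for the 11 members described array by array, with empty vector, full-length and deleted groups side by side, points for arrays and bars for group means. For Ech1 the 3 empty-vector arrays lie at 8.94 to 9.45 and the 6 receptor arrays at 10.23 to 10.87.

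Both subunits of the trifunctional protein, which hydrates, dehydrogenates and cleaves long-chain intermediates at the inner membrane, lay above empty vector without overlap. Hadha, the subunit with the hydratase and hydroxyacyl-CoA dehydrogenase activities, read 9.42, 9.83 and 9.79 with empty vector, 10.04, 10.50 and 10.64 with full-length PPARg2 and 10.16, 10.57 and 10.32 with PPARgCDE. Its differences were 0.71 (SE 0.19, limma adjusted p = 0.221) and 0.67 (SE 0.19, adjusted p = 0.620). With the block Hadha rose with full-length PPARg2 (adjusted p = 0.0178), and PPARgCDE gave adjusted p = 0.0504. Hadhb, the thiolase subunit, read 10.47, 10.61 and 10.29 with empty vector, 11.06, 11.16 and 11.33 with full-length PPARg2 and 11.23, 11.16 and 10.90 with PPARgCDE. The closest pair of arrays, one from each side, was the deleted array 3 and the empty-vector array 2. Hadhb differed by 0.72 (SE 0.14, limma adjusted p = 0.0620) and 0.64 (SE 0.14, adjusted p = 0.255). With the block the adjusted p was 0.0385 for full-length PPARg2 and 0.113 for PPARgCDE. The shared promoter stretch printed above separates a pair of genes whose differences from empty vector were 0.71 and 0.72, and 0.67 and 0.64.

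Of the soluble enzymes that complete the cycle on shorter chains, the thiolase and the hydroxyacyl-CoA dehydrogenase were above empty vector and the hydratase was not. Acaa2, the 3-ketoacyl-CoA thiolase, read 9.45, 9.20 and 9.06 with empty vector, 10.14, 10.50 and 10.03 with full-length PPARg2 and 10.21, 10.36 and 9.83 with PPARgCDE. The lowest receptor array was above the highest empty-vector array, and the differences were 0.98 (SE 0.18, limma adjusted p = 0.0518) and 0.90 (SE 0.18, adjusted p = 0.200). Once the array number was a block, Acaa2 rose with full-length PPARg2 (limma adjusted p = 0.0114) and with PPARgCDE (adjusted p = 0.0363). Within numbers it was 0.76, 1.16 and 0.76 higher with PPARgCDE. Hadh, which oxidises short- and medium-chain 3-hydroxyacyl-CoAs, read 11.29, 11.50 and 11.25 with empty vector, 12.11, 12.30 and 11.90 with full-length PPARg2 and 12.09, 12.31 and 11.79 with PPARgCDE. Array 2 was again the highest in each group, and no receptor array reached down to empty vector. The Hadh differences were 0.75 (SE 0.16, limma adjusted p = 0.102) and 0.72 (SE 0.16, adjusted p = 0.302). The blocked fit called the rise with full-length PPARg2 (adjusted p = 0.00677) and with PPARgCDE (adjusted p = 0.0212).

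Echs1, the short-chain enoyl-CoA hydratase, lay at 9.31 to 9.48 with empty vector and at 8.97 to 9.27 with full-length PPARg2, below it without overlap. The difference was -0.32 (SE 0.13, limma adjusted p = 0.718), and with PPARgCDE it was -0.19 with overlapping arrays. Hsd17b10, which acts on branched-chain intermediates and on steroids, was 0.28 and 0.22 above empty vector without overlap in either comparison, and neither difference passed.

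All 4 auxiliary enzymes of unsaturated fatty acids had positive differences, and Ech1 rose with full-length PPARg2. Ech1, a dienoyl-CoA isomerase that moves a pair of double bonds into place for the reductase, read 9.39, 9.45 and 8.94 with empty vector, 10.51, 10.81 and 10.31 with full-length PPARg2 and 10.47, 10.87 and 10.23 with PPARgCDE. Both receptor groups lay well clear of empty vector, and array 3 was lowest in every group. The full-length difference was 1.28 (95% interval 0.82 to 1.75, limma adjusted p = 0.0268), or 2.43-fold, and the deleted difference 1.26 (0.79 to 1.73, adjusted p = 0.0697). With the block Ech1 rose with full-length PPARg2 (limma adjusted p = 0.00246) and with PPARgCDE too (adjusted p = 0.00506). Within array numbers it was 1.08, 1.42 and 1.29 higher with PPARgCDE. Without the arrays numbered 3 the differences were 1.24 (limma adjusted p = 0.0290) and 1.25 (adjusted p = 0.0551). The full-length call was lost when empty-vector array 1, 2 or 3 was left out (adjusted p = 0.0879, 0.0811 and 0.0843), and without full-length array 1 or 2 or deleted array 1 (0.104, 0.138 and 0.0625).

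Eci2, an enoyl-CoA isomerase found in mitochondria and peroxisomes, read 9.42, 9.45 and 9.59 with empty vector, 10.25, 10.48 and 9.93 with full-length PPARg2 and 10.39, 10.75 and 10.13 with PPARgCDE. Its receptor arrays lay above empty vector without overlap, and the difference between the receptor forms, 0.21, was the highest of the 32. Against empty vector Eci2 differed by 0.73 (SE 0.19, limma adjusted p = 0.200, or 0.0645 with the block) with full-length PPARg2 and by 0.93 (SE 0.19, adjusted p = 0.185, or 0.0645 with the block) with PPARgCDE. Without the arrays numbered 3 these became 0.92 (adjusted p = 0.0590) and 1.13 (adjusted p = 0.0551). Eci1, the mitochondrial isomerase, was 0.27 above empty vector in both comparisons without overlap, and Decr1, the dienoyl-CoA reductase, was 0.40 and 0.48 above with overlap, and none of these passed.

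Etfdh, the inner-membrane oxidoreductase that hands electrons from electron transfer flavoprotein to ubiquinone, rose with both receptor forms. It read 9.12, 9.27 and 9.13 with empty vector, 10.03, 10.25 and 10.23 with full-length PPARg2 and 10.04, 10.21 and 9.98 with PPARgCDE. The 6 receptor arrays spanned 9.98 to 10.25, and the highest empty-vector array was 9.27. The rise was 1.00 with full-length PPARg2 (95% interval 0.74 to 1.26, limma adjusted p = 0.00474), or 2.00-fold, and 0.91 with PPARgCDE (0.64 to 1.17, adjusted p = 0.0182). Within array numbers PPARgCDE was 0.93, 0.94 and 0.84 above empty vector. With the block the limma adjusted p was 0.00271 for full-length PPARg2 and 0.00978 for PPARgCDE. Without the arrays numbered 3 the values were 0.95 (limma adjusted p = 0.0330) and 0.94 (adjusted p = 0.0694, not called). The deleted call was also lost without empty-vector array 1, 2 or 3 (adjusted p = 0.106, 0.0715 and 0.0697) and without deleted array 1 or 2 (0.103 and 0.113).

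Etfa and Etfb encode the subunits of electron transfer flavoprotein that Etfdh reoxidises. Etfa read 10.63, 10.85 and 10.51 with empty vector, 11.07, 11.23 and 10.81 with full-length PPARg2 and 10.76 to 11.18 with PPARgCDE, overlapping through array 3. Its differences were 0.38 (SE 0.16, limma adjusted p = 0.741) and 0.31 (SE 0.16, adjusted p = 1.00), with 0.37, 0.33 and 0.25 within numbers for PPARgCDE. With the block the adjusted p was 0.0395 for full-length PPARg2 and 0.133 for PPARgCDE. Etfb was 0.41 and 0.32 above empty vector with overlapping arrays, and neither subunit passed without the block.

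On the probe sets used, genes of ketone metabolism gave negative differences in both comparisons. Without the block 0 of 3 passed the limma test at an adjusted or unadjusted p under 0.05. With the block 0 passed after adjustment, and 1, Oxct1, had an unadjusted p under 0.05 in each comparison. Oxct1, the transferase with which cells outside the liver activate acetoacetate, lay at 11.56 to 12.20 with empty vector, 11.18 to 11.78 with full-length PPARg2 and 11.30 to 11.73 with PPARgCDE. Array 3 was lowest in each group, and the differences were -0.37 (SE 0.22) and -0.35 (SE 0.22), with limma adjusted p of 0.0849 and 0.183 with the block. Acat1, the mitochondrial acetoacetyl-CoA thiolase, was at -0.05 and -0.03 with standard errors of 0.17. Bdh1, which interconverts acetoacetate and beta-hydroxybutyrate, lay at 4.86 to 5.55 on all arrays, under every array's median, and differed by -0.13 and -0.08.

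Pcca and Pccb, the subunits of propionyl-CoA carboxylase, Mcee, the epimerase of the next step, and Mlycd, which decarboxylates malonyl-CoA, differed by -0.04 to -0.02 with full-length PPARg2 and by -0.03 to 0.14 with PPARgCDE. Of the 4, 0 passed the limma test in any comparison at an adjusted or unadjusted p under 0.05.

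The F test over the 3 groups called 2 members, Etfdh (limma adjusted p = 0.0092) and Ech1 (adjusted p = 0.0444), where 0.418% of all genes were called. Between the receptor forms 0 of 32 members differed by limma, also with the block, and 0 did at an unadjusted p under 0.05 without the block and 1, Acadvl, with it. Over all 18193 genes 0% were called in either fit. At an unadjusted p under 0.05, 99 of all genes were higher and 178 lower with PPARgCDE without the block. With it the limma fit gave 426 higher and 360 lower, so that 1 member is no excess over the background. The member differences, deleted minus full-length, ran from -0.35 for Acadvl to 0.21 for Eci2 with a median of -0.0044, and for 0 members did the arrays of these groups lie apart without overlap (5.17% of all genes did so in either direction). Their 95% intervals show what the arrays could not resolve: -0.35 to 0.17 for Etfdh, -0.49 to 0.45 for Ech1, -0.50 to 0.32 for Acaa2, -0.40 to 0.33 for Hadh and -0.82 to 0.61 for Acadl. A p above the threshold does not show that the receptor forms act alike on these genes.

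By size, Acadvl had the most negative receptor difference, and Acads had the lowest unadjusted p without the block (0.0853, limma; 0.160 for Acadvl). PPARgCDE was at -0.30, -0.36 and -0.40 against full-length PPARg2 within numbers 1, 2 and 3, and the unadjusted interval was -0.52 to -0.18 with the block and -0.87 to 0.17 without it. Over all genes the blocked limma adjusted p was 0.634, so Acadvl was not called. Acads differed by -0.34 (-0.75 to 0.06), with the full-length array 3 at 8.94 and the other 5 receptor arrays at 8.15 to 8.53. Within array numbers 6 members were lower with PPARgCDE in all 3 (Acadvl, Acadl, Acadm, Hsd17b10, Etfa and Etfb; 18.8%, against 12.4% of all genes) and 4 were higher in all 3 (Ivd, Gcdh, Echs1 and Eci2; 12.5%, against 13.6%).

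**Figure D3:**
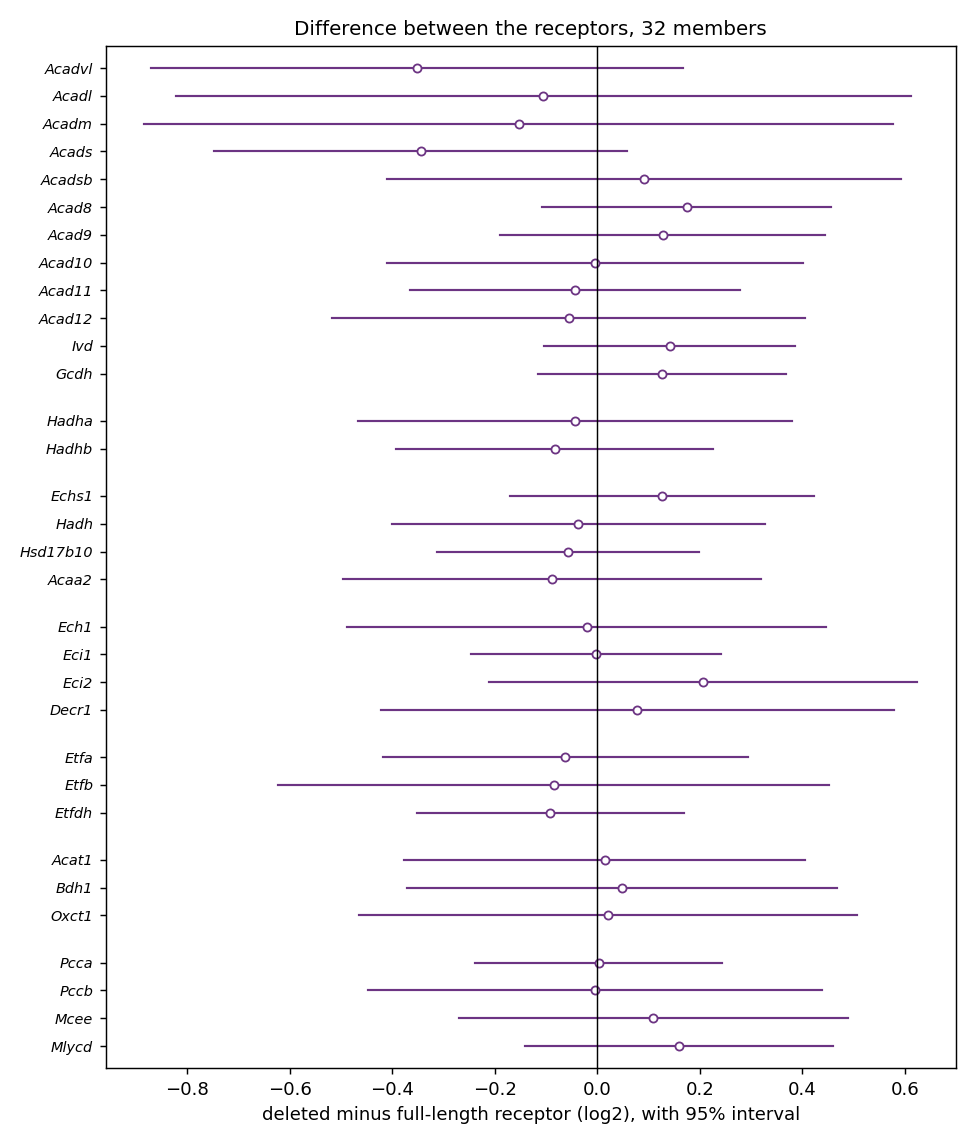
Difference between the receptor forms, deleted minus full-length, on the log2 scale for each member, with limma 95% intervals. The points run from -0.35 for Acadvl to 0.21 for Eci2, and every interval reaches across 0.

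**Figure D4:**
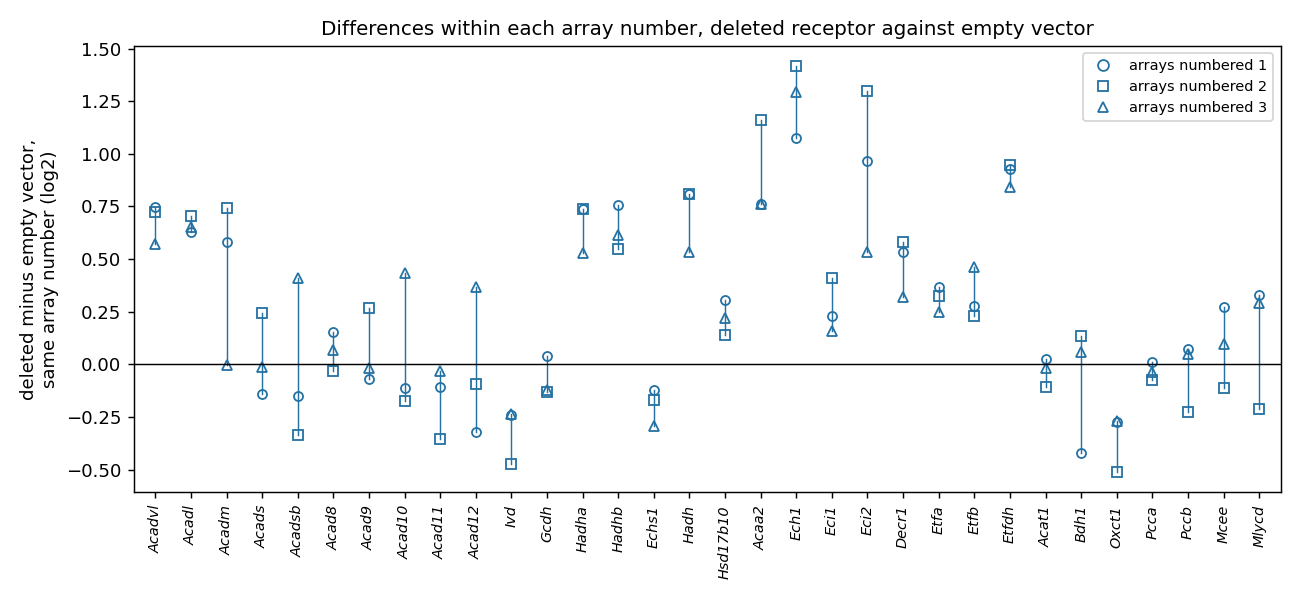
Differences of PPARgCDE from empty vector within array numbers 1, 2 and 3 on the log2 scale for the 32 members, with a line joining the 3 points of a gene. Etfdh lies at 0.93, 0.94 and 0.84 and Ivd at -0.24, -0.47 and -0.23.

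Where a member had several probe sets, the others mostly gave the same direction. With full-length PPARg2 the sign was the same over all probe sets of 13 of 16 such members, the exceptions being Acadl, Acad8 and Acad9. The 3 probe sets of Acaa2 gave 0.98 to 1.35, the 3 of Hadh 0.69 to 0.75 and the 3 of Hadhb 0.34 to 0.78. The other probe set of Etfdh, at a mean level of 5.24, gave 0.29 with the full-length and 0.17 with PPARgCDE, and that of Acadl, at 5.60, gave -0.16 and -0.09. Both of these lie under the lowest array median. The 4 probe sets of Oxct1 gave -0.46 to -0.21 with full-length PPARg2 and -0.55 to -0.11 with PPARgCDE. With PPARgCDE the 3 probe sets of Acat1 gave -0.03 to 0.02 and the 2 of Bdh1 -0.08 to 0.01. The other probe set of Ivd, at a mean level of 7.41, gave -0.17 and -0.19 with overlapping arrays in both comparisons. Ech1, Acadvl, Hadha, Eci2 and Etfa were each read by a single probe set. The probe sets kept for Hadh and Hadhb carry the _x_at suffix, which Affymetrix gives to probe sets that may also bind related transcripts, as do those of Acadsb and Acad10.

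**Figure D5:**
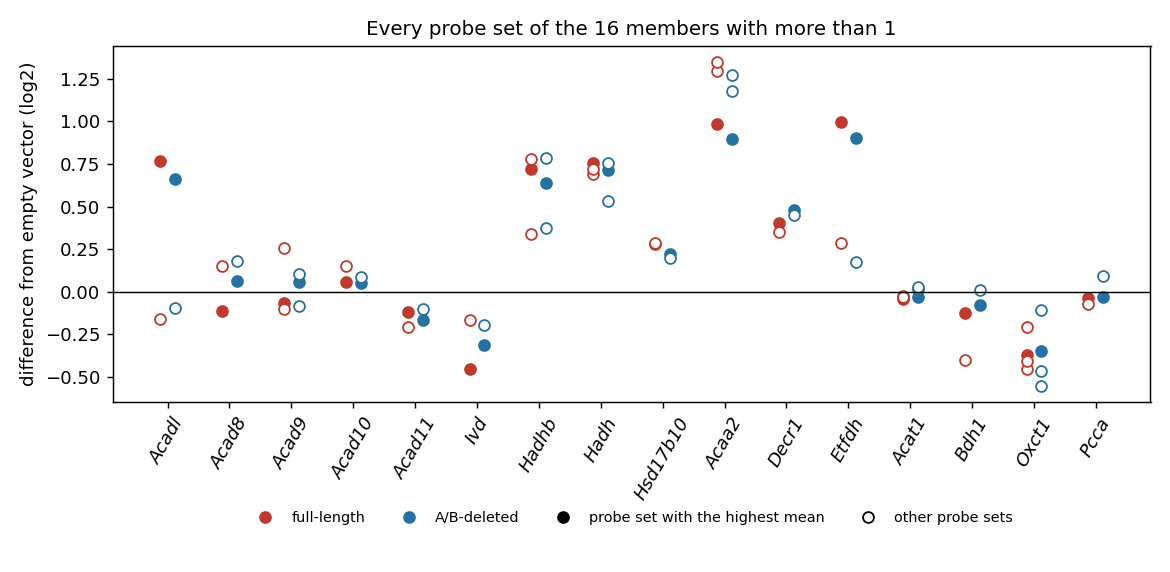
Difference of each receptor group from empty vector on the log2 scale for every probe set of the 16 members that have more than 1, with the probe set used for the gene marked. With full-length PPARg2 the 3 probe sets of Acaa2 lie at 0.98 to 1.35, and those of Acadl lie on both sides of 0.

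Around the members, some genes that feed the cycle were called. Of 5 carnitine shuttle genes measured, 2 rose with full-length PPARg2 (3 with the block) and 1 with PPARgCDE (2 with the block), and 0 fell. Cpt1a, which makes acylcarnitine at the outer membrane, read 9.75, 9.25 and 9.86 with empty vector, 11.33, 11.40 and 11.33 with full-length PPARg2 and 11.38, 11.52 and 11.40 with PPARgCDE, rises of 1.73 (limma adjusted p = 0.00119) and 1.81 (adjusted p = 0.00170). Cpt2, which remakes acyl-CoA in the matrix, rose by 0.98 with full-length PPARg2 (limma adjusted p = 0.0278, or 0.00514 with the block). With PPARgCDE it was 0.88 higher (adjusted p = 0.119, or 0.0189 with the block). Cpt1c, the carnitine palmitoyltransferase best known from brain, was at -0.08 and -0.05, and Crat, carnitine acetyltransferase, at 0.16 and -0.02. The carnitine carrier Slc25a20 was 1.04 (limma adjusted p = 0.0518, or 0.0148 with the block) and 0.67 (adjusted p = 0.646, or 0.130 with the block) above empty vector. Acot2, a mitochondrial acyl-CoA thioesterase, rose by 1.59 (limma adjusted p = 9.11e-04) and 1.56 (adjusted p = 0.00174), the 1 call in each comparison among 7 thioesterases and synthetases.

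The other lists around the members gave few calls. Among 10 peroxisomal beta-oxidation genes limma without the block called 0 in any comparison. At an unadjusted p under 0.05, 2 were higher and 1 lower for full-length PPARg2 and 2 higher for PPARgCDE. In that list Pex11a, a factor of peroxisome division, was 1.31 (SE 0.40) and 1.16 above empty vector. With the block its limma adjusted p was 0.0227 for full-length PPARg2 and 0.0757 for PPARgCDE. Of 15 citric acid cycle genes limma without the block called 0, with 1 higher at an unadjusted p under 0.05 in each comparison with empty vector. The largest differences, 0.68 and 0.55, were those of Idh3a, and Cs, citrate synthase, differed by 0.09 and 0.04. With the block 1 gene of this list was called higher for full-length PPARg2 (limma adjusted p = 0.0135) and 0 for PPARgCDE. For 16 genes of propionate and branched-chain amino acid breakdown limma called 0 in any comparison, also with the block. Without the block 1 was higher at an unadjusted p under 0.05 for full-length PPARg2 and 0 for PPARgCDE. With it 1 had an unadjusted p under 0.05 in each comparison with empty vector. Bdh2 and Aacs, measured beside the ketone members, gave 0 calls at either level of p. Among 11 regulators limma called Pparg alone, while Ppara, Ppard and Ppargc1a differed from empty vector by 0.02, 0.22 and 0.08 with full-length PPARg2 and by 0.10, 0.10 and -0.13 with PPARgCDE. The 11 mitochondrial content genes gave 0 limma calls, also with the block, and their medians were 0.02 and -0.02. At an unadjusted p under 0.05 they gave 0 without the block and 2 with it in each comparison with empty vector.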

How the data were processed

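RNA of NIH-CAR cells was hybridised to 9 Affymetrix arrays, 3 per group, with group and number taken from the sample titles. Per the submitters' processing notes, the authors used RMA from affy in R 2.5.0, and they deposited log2 values per probe set. Which base the logarithm had was read from the values: the base 2 antilog fell on a multiple of 0.01 (tolerance 0.01 of that step) for 99.9% of values or more on each array. Values were used as deposited. RMA summarises probes and equalises arrays, so a shift of all genes would not be seen, and the table gave no detection calls. Arrays have no read depth, and precision rests on their number. A difference between groups had a standard error of 0.158 at the median gene.

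Of 45101 probe sets, 34945 with a single gene symbol in the platform annotation were used, and those with several (932) or none (9160) and control probe sets were left out. Each of 18193 genes was represented by its brightest probe set on average over the arrays. Entrez identifiers of 34741 probe sets matched RefSeq's gene table (GRCm38.p6), and 0 symbols changed. Promoters came from RefSeq's table on that build.

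Differences were tested two-sided with limma 3.58.1 in R 4.3.3 (lmFit, contrasts, eBayes) in 1 fit over 9 arrays with 6 residual and 3.374 prior degrees of freedom, tested on simulated data. A gene was called where its p, adjusted by Benjamini-Hochberg over the 18193 genes, was under 0.05. A 95% interval is not adjusted. Tables and figures used Python 3.11.15, pandas 2.3.3, numpy 2.4.6 and matplotlib 3.10.9. The members and lists were chosen with earlier results of these data known. Members were described array by array where called in any fit, the block included, or at least 0.5 log2 from empty vector without overlap; the others by range and counts. Of the neighbouring lists, each called gene and at most 4 others were named. Levels of different probe sets were not compared.

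Equal array numbers were checked by correlating, across genes, each array's departure from its group mean. The correlation was 0.57, 0.52 and 0.71 between deleted and empty vector and 0.30, 0.51 and 0.53 between deleted and full-length, so the numbers were taken to pair these arrays from the data, and the labels give only the number. The blocked fit was a single fit over the arrays of all groups, full-length included, and had 4 residual degrees of freedom. Alternatives were the block, subtracted array medians, quantile normalization, only the 6 arrays compared, other choices of probe set, a filter on dim genes, a trended robust prior, and leaving out each array or the arrays numbered 3.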

Additional observations from a re-analysis of the deposited data

How the results depend on the processing

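With empty vector as the reference, limma called 2 members for full-length PPARg2 and 1 for PPARgCDE. These became 4 and 0 with probe sets averaged per gene, 4 and 2 among genes at or above the median level, 4 and 2 with a trended robust prior, and 1 and 0 with only the 6 arrays compared. In the same order, 0.434% and 0.132%, 1.47% and 0.407%, 0.643% and 0.176%, and 0.291% and 0.110% of the genes tested were called higher. The filter at the median level tested 29 members and called 134 and 37 of 9097 genes higher. Without it 91 and 29 of 18193 genes were called higher, so the larger member counts under the filter came with a larger background share. Leaving out 1 array gave 1 to 3 and 0 to 1 members, with 0.242% to 0.484% and 0.0934% to 0.165% of all genes called higher. Without the arrays numbered 3 the member counts were 3 and 0, with 0.665% and 0.269% of all genes called higher. With the replicate block the counts were 10 (Ivd lower, and Acadvl, Acadl, Hadha, Hadhb, Hadh, Acaa2, Ech1, Etfa and Etfdh higher, with Etfa at adjusted p = 0.0395) and 6. The F test over the groups gave 7 with the block against 2. Its share over all genes is given only without the block, so the 7 cannot be read as an excess over the background. For full-length against empty vector, arrays of equal number had correlations of -0.12, 0.63 and 0.26, which gave no clear sign of pairs. The blocked fit nonetheless treated arrays of equal number as matched across all groups at once. Its results, those for PPARgCDE included, therefore also assume that full-length arrays match empty-vector arrays by number. For full-length against empty vector the blocked fit called 1.89% of all genes higher and 1.74% lower. Between the receptor forms every alternative called 0 members. Subtracted medians, quantile normalization and the probe set with the largest variance kept 2 and 1 members. Of all genes these called 0.368% to 0.506% and 0.137% to 0.154% higher.

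Over 18 alternatives Etfdh was called for full-length PPARg2 in 18 (0.64 to 1.07, adjusted p 0.00223 to 0.0374), Ech1 in 11, and Etfdh for PPARgCDE in 10 (adjusted p 0.00686 to 0.178, the highest with the mean of its probe sets, where the difference was 0.54). The cause of these changes was not tested. In differences from empty vector, none of the 11 members followed through the alternatives changed sign. Signs turned only between the receptor forms, where none was called. There, leaving out 1 array gave -0.38 to 0.15 for Acadl, -0.22 to 0.081 for Hadha, -0.15 to 0.014 for Hadhb, -0.16 to 0.10 for Hadh, -0.20 to 0.065 for Acaa2, -0.19 to 0.13 for Ech1 and -0.17 to 0.047 for Etfa. Without the arrays numbered 3, Hadha was at 0.10, Hadhb at 0.090 and Ech1 at 0.011. Hadhb was at 0.0096 with the probe set of largest variance and Ech1 at 0.014 with medians subtracted. With 3 arrays per group, 1 clone and no read depth, small differences between the receptor forms could not be resolved.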

Other observations

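Markers of other cell types, as summed log2 signal, ran over the empty-vector, full-length and deleted arrays as follows. The 5 hepatocyte markers lay at 8.86 to 9.28 with empty vector and within that range in both receptor groups, with 1 below the lowest array median on every array. The 5 muscle markers lay at 8.89 to 9.33, 8.86 to 9.36 and 8.76 to 9.04, with 3 below it on every array. The 4 leukocyte markers measured lay at 8.11 to 8.32, 8.24 to 8.53 and 7.96 to 8.42, with 2 below it on every array. The 4 epithelial markers lay at 8.79 to 9.39, 9.33 to 9.57 and 8.94 to 9.22, with 2 below it on every array. Above the lowest array median on every array were 1 hepatocyte, 2 muscle, 0 leukocyte and 1 epithelial marker.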
